A study of Mus musculus with 4 samples.

Results

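The genes of the cytosolic and the mitochondrial ribosome were compared in mouse liver. Of 22849 gene symbols with a measured level, 154 were members: 82 with symbols starting with Rpl or Rps and a number, or with Rplp or Rpsa (cytosolic), and 72 starting with Mrpl or Mrps and a number (mitochondrial). Symbols of pseudogenes (4 rows), ribosomal S6 kinases (11 rows) and rows that named several genes at once (10 rows) were left out, which removed Rpl13a, Rpl30, Rpl34, Rps21, Mrpl10, Mrpl17, Mrpl53 and Mrps6. The cytosolic set held 49 genes of the large and 32 of the small subunit, plus Rps19bp1, a binding protein gene that the symbol rule took in. Sorted by symbol alone, the mitochondrial set held 44 of the large and 28 of the small subunit.

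Every library came from the liver of male C57BL/6 mice, an inbred strain with no engineered allele named in the labels, fed 60% fat for 12 weeks. Vehicle mice ate this diet alone, and UAB126 mice ate it with 1.2 g of UAB126, a compound known here only by its code, in each kg of diet. Each group had 2 libraries, numbered as replicates 1 and 2. The age of the mice and whether each library was 1 animal are not stated in the sources at hand, so p-values measure only the spread between these libraries, which may be technical.

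Ribosomal proteins sit on the ribosomal RNA and form a large and a small subunit. Cytosolic ribosomes translate the messages of the nucleus, including the plasma proteins that hepatocytes secrete. Mitochondrial ribosomes translate the few messages of the mitochondrial genome, which encode inner subunits of the respiratory chain, and all of their proteins are encoded in the nucleus and imported. Messages of cytosolic ribosomal proteins commonly begin with a run of pyrimidines (C or T in the DNA), the TOP motif, through which TOR signalling controls their translation. Genes of cytosolic ribosomal proteins have left many processed pseudogenes, near copies of the spliced message, across the mammalian genome.

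Sequence that a member shares with other genes can make its measured level uncertain, since a read from a shared stretch fits more than 1 place. Its part in the levels here was not tested. Windows of 75 bases, the read length, were compared between the principal coding transcript of each member and the transcripts of every other annotated gene. The 3 stretches here are shown because their genes were at or near 0 in every library; the capitals mark bases shared without mismatch, which is the whole stretch, in coding exons of GRCm38, on the strand of the gene.
Rpl23a, chr11:78182906-78182980, minus strand, also found in 6 other genes: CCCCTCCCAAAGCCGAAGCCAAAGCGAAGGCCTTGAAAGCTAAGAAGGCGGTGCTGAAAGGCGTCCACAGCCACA
Rps23, chr13:90924598-90924672, plus strand, also found in 5 other genes: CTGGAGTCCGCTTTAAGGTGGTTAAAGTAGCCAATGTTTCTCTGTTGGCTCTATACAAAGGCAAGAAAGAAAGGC
Mrpl23, chr7:142535005-142535079, plus strand, also found in 1 other gene: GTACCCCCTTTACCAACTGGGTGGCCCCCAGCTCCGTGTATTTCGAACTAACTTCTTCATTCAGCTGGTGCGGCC

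Pyrimidine runs at the start of the message differed in frequency between the sets but did not separate them. The windows below hold 15 bases before and 15 bases from the annotated start, read from RefSeq on GRCm38.p6 on the strand of the gene. Capitals mark a run of at least 6 pyrimidines that covers or touches the start, searched on that strand only. The cytosolic genes shown have such a run and the mitochondrial genes shown have none. This choice is not typical, since most matched cytosolic genes lack the run and some mitochondrial genes have it. All 8 are described further on.
Rpl7a, chr2:26910792-26910821, plus strand: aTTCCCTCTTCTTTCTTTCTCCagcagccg
Rps10, chr17:27635230-27635259, minus strand: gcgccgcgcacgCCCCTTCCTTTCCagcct
Rplp2, chr7:141447636-141447665, plus strand: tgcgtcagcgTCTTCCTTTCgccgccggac
Rps27, chr3:90213634-90213663, minus strand: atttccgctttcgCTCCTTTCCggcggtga
Mrpl52, chr14:54426894-54426923, plus strand: tgccggggccacgcccacttccggttccct
Mrpl33, chr5:31613936-31613965, plus strand: cccgcgcatgccccggaagtagtcgttgag
Mrps25, chr6:92184009-92184038, minus strand: gaagtgcctcccaagattcccggagccgcg
Mrps5, chr2:127587411-127587440, plus strand: gctgctccggctccagcatggcggcggccg
RefSeq start windows were matched for 62 cytosolic and 63 mitochondrial members. The run was present in 19 of the 62 (30.6%) and in 7 of the 63 (11.1%), against 12.5% of all 27025 genes with a window of this length. A missing run says only that these letters are not at the annotated start.

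Levels were deposited as FPKM (fragments scaled by transcript length and library size), which allows a rough comparison between genes. The scaling left a trend with length that differed between libraries, described further on. The absolute depth is unknown; relative to UAB126 replicate 1, the steps between low values gave 0.703 for UAB126 replicate 2 and 0.691 and 0.404 for the vehicle libraries. The hepatocyte markers were all present, with summed levels of 59490 and 116800 FPKM with vehicle and 32250 and 47730 FPKM in UAB126, but the members differed in direction. Alb (albumin) was listed at 0 in every library but vehicle replicate 2, where it added 32240 FPKM. Apoa1, Ttr and Asgr1 were lower in both UAB126 libraries, Cps1 overlapped, and Tat, a tyrosine-degrading enzyme, was at 392.6 and 513.0 against 1118 and 1431 FPKM. The macrophage markers (7 of 8 in the table) summed to 55.3 and 157.2 against 144.4 and 151.6 FPKM, and the lymphocyte markers (7 of 7) to between 3.61 and 9.05 FPKM.

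The cytosolic set was far more uneven than the mitochondrial set. Summed over its 82 members, it reached 16540 and 29000 FPKM with vehicle and 13140 and 18330 FPKM with UAB126. The 72 mitochondrial members summed to 3916, 5659, 3026 and 4142 FPKM in the same order. In both sets vehicle replicate 2 was highest and UAB126 replicate 1 lowest, and the groups overlapped because UAB126 replicate 2 lay above vehicle replicate 1. In bulk liver, fewer cells of a type and less RNA per cell cannot be told apart.

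The ratio of the cytosolic to the mitochondrial sum was 4.23 and 5.13 in vehicle and 4.34 and 4.42 in UAB126. Both UAB126 ratios thus lay between the vehicle ratios. Without Rplp1, which held 29.2% to 36.4% of the cytosolic sum, the ratio was 2.81 and 3.63 against 2.87 and 2.82. The middle of each set gave the opposite order: the median cytosolic gene was at 19.8, 26.2, 17.2 and 25.2 FPKM and the median mitochondrial gene at 36.1, 54.6, 30.8 and 38.7 FPKM in the 4 libraries. The ratio of these medians was 0.547 and 0.480 in vehicle and 0.557 and 0.651 in UAB126. At the third quartile of the mean levels the cytosolic genes were again the higher, at 151.7 against 81.0 FPKM.

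Highest among cytosolic genes was Rplp1 (chromosome 9, 61913284 to 61914542), a protein of the stalk on which elongation factors work. It was at 5533 and 8456 FPKM with vehicle and at 4466 and 6660 FPKM in UAB126. Rps28, a small subunit protein (chromosome 17, 33819027 to 33824562), was at 1501 and 4886 against 1287 and 2196 FPKM. Rpl32, of the large subunit (chromosome 6, 115805505 to 115808747), was at 1473 and 2297 against 1027 and 995 FPKM. The groups overlapped for Rplp1 and Rps28, and both UAB126 libraries were lower for Rpl32. The other stalk genes were well below Rplp1, with means of 236.9 FPKM for Rplp0, the scaffold of the stalk, and 268.5 FPKM for Rplp2, its other acidic protein. The stalk holds copies of all 3 proteins, while the measured level of Rplp1 stood far above those of its partners.

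The mitochondrial genes stayed within a narrower band. The most abundant, Mrpl52 of the large subunit (chromosome 14, 54426909 to 54429756), was at 302.8 and 442.4 FPKM with vehicle and 189.0 and 285.5 FPKM in UAB126, so both UAB126 libraries were lower. Mrpl12 (chromosome 11, 120484613 to 120489065), a large subunit protein also reported to bind the mitochondrial RNA polymerase, was at 247.1 and 294.2 against 206.7 and 259.4 FPKM. Mrps21 of the small subunit (chromosome 3, 95862634 to 95871519) was at 131.9 and 225.1 against 101.7 and 160.4 FPKM. For Mrpl12 and Mrps21 the groups overlapped.

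A mean of at least 1 FPKM, the filter for the test, was reached by 63 of the 82 cytosolic and 71 of the 72 mitochondrial members. Just inside lay Rpl21, with a mean of 2.36 FPKM, and just outside Rps27a, with 0.884 FPKM. Among members that passed, the SD of the log2 mean was 2.66 in the cytosolic and 1.28 in the mitochondrial set, and the highest mean was 2658 times and 101.5 times the lowest. Although a ribosome needs nearly all of its proteins, 16 of the 82 cytosolic genes were listed at 0 FPKM in at least 1 library, against 1 of the 72 mitochondrial genes.

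The genes Rps23, Rpl36a and Rpl10l were listed at 0 in every library; Rps23 is a protein of the decoding centre and Rpl10l a paralog mainly known from testis. Another 13 cytosolic genes were listed at 0 in 1 to 3 libraries, among them Rpl9, Rpl10a, Rpl11, Rpl12, Rpl23a, Rpl24, Rpl27, Rpl28, Rpl38, Rpl39l, Rps13 and Rps29. Rpl23a, which lies at the exit of the peptide tunnel, was listed at 0 in 3 libraries and at 0.330 FPKM in UAB126 replicate 2. Rpl9 was at 0.229 FPKM and listed at 0 with vehicle, and at 0.476 and 0.113 FPKM in UAB126. Rpl38 was at 0.357 FPKM and listed at 0 with vehicle, and at 0.822 FPKM and listed at 0 in UAB126. Zeros occurred in all 4 libraries, for 10 and 15 of the 82 genes with vehicle and for 6 and 8 with UAB126, and were most frequent in vehicle replicate 2, the shallowest library. The exception on the mitochondrial side was Mrpl23 (chromosome 7, 142532686 to 142540747), listed at 0 in 3 libraries and at 0.218 FPKM in UAB126 replicate 1. A 0 in such a table can be a failed estimate, and these levels are given as listed, with no fold change.

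Shared sequence moved with these low levels. The median share of 75-base stretches that also occurred in another annotated gene was 39.5% over 81 cytosolic members with a scanned transcript, 0 over the 72 mitochondrial members and 0 over 9986 tested genes. Over 50% of the stretches were shared in 27 of the 81 cytosolic members and in 1 mitochondrial member, Mrpl23 (75.4%, with 1 other gene), against 1.77% of the tested genes. No stretch was shared in 5 of the 81 cytosolic members and in 47 of the 72 mitochondrial members, against 80.4% of the tested genes. For the cytosolic set the copies were often pseudogenes: 662 annotated pseudogenes held a stretch of a member, and 26 of them were overlapped by a deposited row under 5000 bases wide.

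Cytosolic members with over 50% shared had a median level of 4.70 FPKM, and 12 of these 27 were under 1 FPKM. With 10% to 50% shared, the median was 53.9 FPKM, and 5 of 41 were under 1 FPKM. With at most 10% shared, it was 27.2 FPKM, and 2 of 13 were under 1 FPKM, both of them tissue-restricted paralogs (Rpl10l and Rpl39l). Of the 19 cytosolic members under the filter, 17 had over 30% shared. Mitochondrial members with at most 10% shared had a median of 41.0 FPKM (n = 63). Across genes, which are not independent replicates, Spearman's rho of mean level with the share was -0.43 in the cytosolic set (n = 81) and -0.21 in the mitochondrial set (n = 72). How the authors' software assigned reads with several matching places is not stated in the sources at hand, and the part of shared reads in the low levels was not tested.

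**Figure D1:**
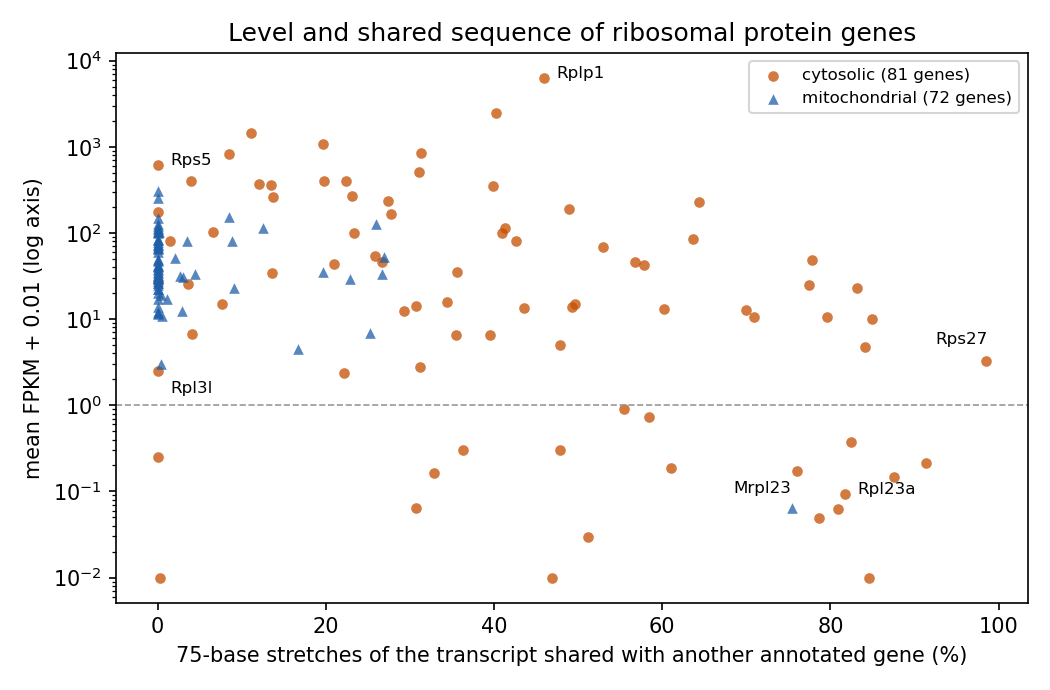
Mean level of each member over the 4 libraries (FPKM + 0.01, log axis) against the share of 75-base stretches of its transcript found in another annotated gene (percent); circles are cytosolic and triangles mitochondrial genes, and the dashed line marks 1 FPKM. Most triangles stand at the left edge (47 of 72 at 0), while 27 of 81 circles lie beyond 50% and 12 of those fall below the line.

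Several cytosolic proteins have a second gene, and these pairs differed widely in level. Rps27l (chromosome 9, 66946086 to 66949516), a paralog known as a p53 target, was at 316.9 and 659.9 FPKM with vehicle and 171.3 and 326.0 FPKM in UAB126. Its parent Rps27 (chromosome 3, 90212522 to 90213651) was at 4.66 and 3.02 against 2.00 and 3.16 FPKM. The parent was thus the lower of the pair by 68.0 to 218.3 times in every library, and it shared 98.5% of its stretches with 4 other genes, against 12.0% for Rps27l. A pair of the same kind was Rpl36al (chromosome 12, 69182731 to 69184083), at 90.3 and 187.0 against 71.3 and 46.9 FPKM, with its parent Rpl36a (84.6% shared) listed at 0 throughout. For these pairs the level of the parent is uncertain.

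In the other pairs the parent was higher. Rpl7l1, with 23.4 and 30.5 FPKM under vehicle and 23.3 and 25.2 FPKM under UAB126, was at 0.241 to 0.274 times Rpl7. Rpl22l1 was at 6.60 and 20.7 FPKM with vehicle and 9.69 and 22.4 FPKM in UAB126. Its ratio to Rpl22 was 0.0981 and 0.160 in vehicle and 0.177 and 0.325 in UAB126. Both ratios in UAB126 thus lay above both in vehicle, though narrowly, and the groups overlapped in the level of either gene. How often such ratios separate among other genes was not examined. Rpl22l1 shared 49.6% of its stretches and Rpl22 1.42%, while Rpl7 shared 41.0% and Rpl7l1 3.67%. The ratios of these pairs are thus uncertain too. The gene listed as Rps4y2, at a position on chromosome 6 (148354656 to 148355598), was at 33.0 and 32.4 against 24.1 and 25.2 FPKM, lower in both UAB126 libraries. Its ratio to Rps4x, the gene on the X chromosome, was 0.380 to 0.505. The annotation used here gave Rps4y2 no coding transcript to scan, so its shared sequence is unknown. Rps4x shared 52.9% of its stretches. Rpl39l, a paralog found mainly in testis, was at 0.199 FPKM and listed at 0 with vehicle and at 0.0688 and 0.685 FPKM in UAB126.

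Rpl3l (chromosome 17, 24727820 to 24736143), the paralog of Rpl3 that is typical of skeletal and heart muscle, had the most negative difference among the members. It was at 2.00 and 7.72 FPKM with vehicle and at 0.129 and 0.202 FPKM in UAB126, so both UAB126 libraries were far lower, and the vehicle libraries differed between themselves. The log2 difference was -2.14 ± 0.52, where ± is limma's SE, here and throughout, with 2 libraries in each group. Rpl3l reached the filter of 1 FPKM, described with the test, only through the vehicle libraries, so it had to differ, and its value is a description. No stretch of Rpl3l was shared with another gene. Its parent Rpl3, a large subunit protein near the peptidyl transferase centre, was at 21.8 and 27.4 against 15.7 and 26.2 FPKM, where the groups overlapped.

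**Figure D2:**
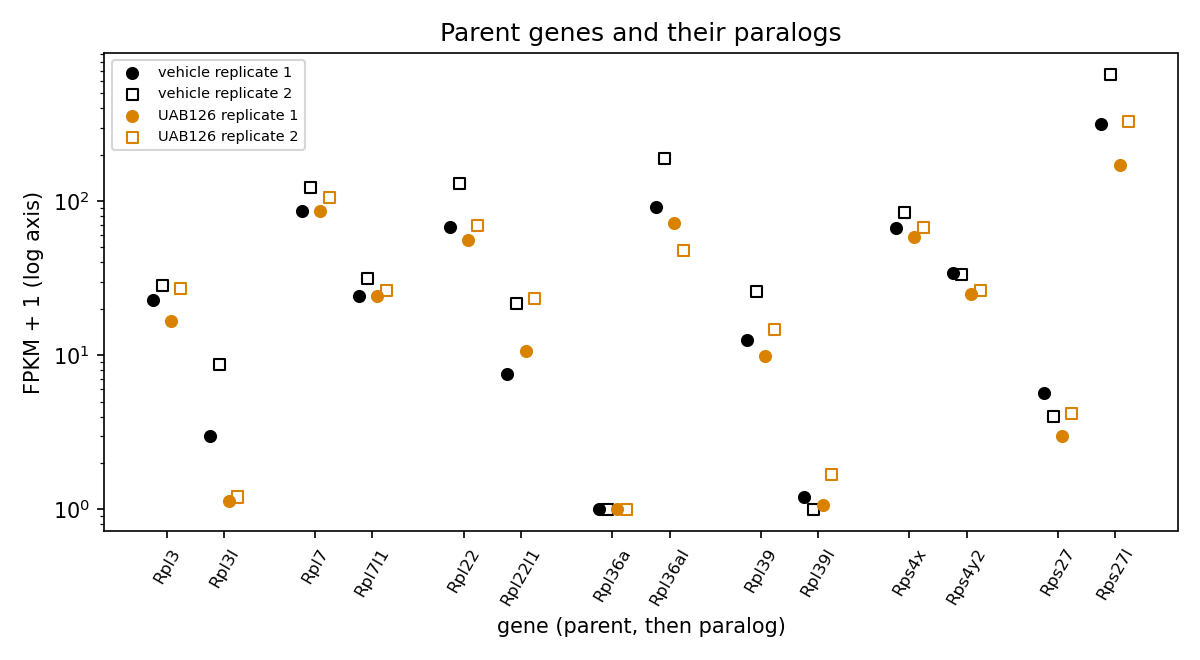
Level of 7 parent genes and, to the right of each, their paralogs (FPKM + 1, log axis), with 1 point per library, filled for replicate 1 and open for replicate 2, black for vehicle and orange for UAB126. Rps27l and Rpl36al stand far above their parents, the other paralogs stand below theirs, and the Rpl3l points split by group (2.00 and 7.72 FPKM against 0.129 and 0.202 FPKM).

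Whether UAB126 changed the message of either ribosome was tested on log2(FPKM + 1) with limma over the 10786 symbols that passed the filter. This scale understates the change of low genes. None of the 63 cytosolic and none of the 71 mitochondrial members passed at a Benjamini-Hochberg adjusted p of 0.05, where 15 of all tested symbols did (0.139%). An unadjusted p under 0.05 was reached by 10 of the 63 (15.9%) and by 1 of the 71 (1.41%), against 13.4% of all tested symbols. The cytosolic share was thus near the background and the mitochondrial share below it. The 10 cytosolic genes include Rpl3l, which entered the test only through its level with vehicle. One library mattered for this count: without vehicle replicate 1, 3 cytosolic members passed, where 4.1% of all tested symbols did. Among the 63 tested, this was a share near that of all tested symbols. The fit compared both UAB126 libraries with vehicle replicate 2 alone, the highest library for 50 of the 63 genes. With no second vehicle library, only the sizes of the differences are given. The 3 members were Rpl21 (log2 difference -1.53), Rpl37a (-1.69) and Rpl3l, which entered the test only through its level with vehicle. Rpl21 and Rpl37a are named after their values were seen.

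Differences were mostly negative in both sets. The median log2 difference, UAB126 minus vehicle, was -0.49 over the 63 cytosolic genes (quartiles -0.70 and -0.18), with 57 below 0, and -0.35 over the 71 mitochondrial genes, with 64 below 0. Over all tested symbols it was -0.03. With quantile normalization the medians of the sets were -0.25 and -0.18. Both UAB126 libraries were below both vehicle libraries for 24 cytosolic genes (38.1%) and 25 mitochondrial genes (35.2%), against 26.9% of all tested symbols. The reverse held for 1 cytosolic and 4 mitochondrial genes, against 22.7% of all tested symbols. Rpl3l, which had to differ, is included in the cytosolic median and in the counts of lower cytosolic genes. By subunit, the median was -0.48 over 37 cytosolic large and -0.53 over 25 small subunit genes, and -0.32 over 43 mitochondrial large and -0.37 over 28 small subunit genes.

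These medians rested on single libraries as much as on the groups. The median deviation from the gene's own mean in the cytosolic set was -0.07 and 0.58 for vehicle replicates 1 and 2, and -0.41 and -0.01 for UAB126 replicates 1 and 2, on the log2 scale. In the mitochondrial set it was -0.04, 0.37, -0.37 and 0.03 in the same order. Vehicle replicate 2 was the highest library for 50 of the 63 and 61 of the 71 genes, and UAB126 replicate 1 the lowest for 46 and 59. Over all tested symbols the same libraries were highest in 36.8% and lowest in 33.7%. The other libraries barely differed, since UAB126 replicate 2 minus vehicle replicate 1 had a median of 0.04 over the cytosolic and 0.06 over the mitochondrial genes. Gaps within groups were of similar size: vehicle replicate 2 minus replicate 1 had a median of 0.64 and 0.42, and UAB126 replicate 2 minus replicate 1 of 0.33 and 0.40. The summed hepatocyte markers given above were also highest in vehicle replicate 2, the only library with a value for Alb, and lowest in UAB126 replicate 1, although Tat was higher in both UAB126 libraries. The median log2 difference of these 6 markers was -0.80, or -0.46 with the trend with transcript length, described below, removed. Their part in the result was not tested.

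**Figure D3:**
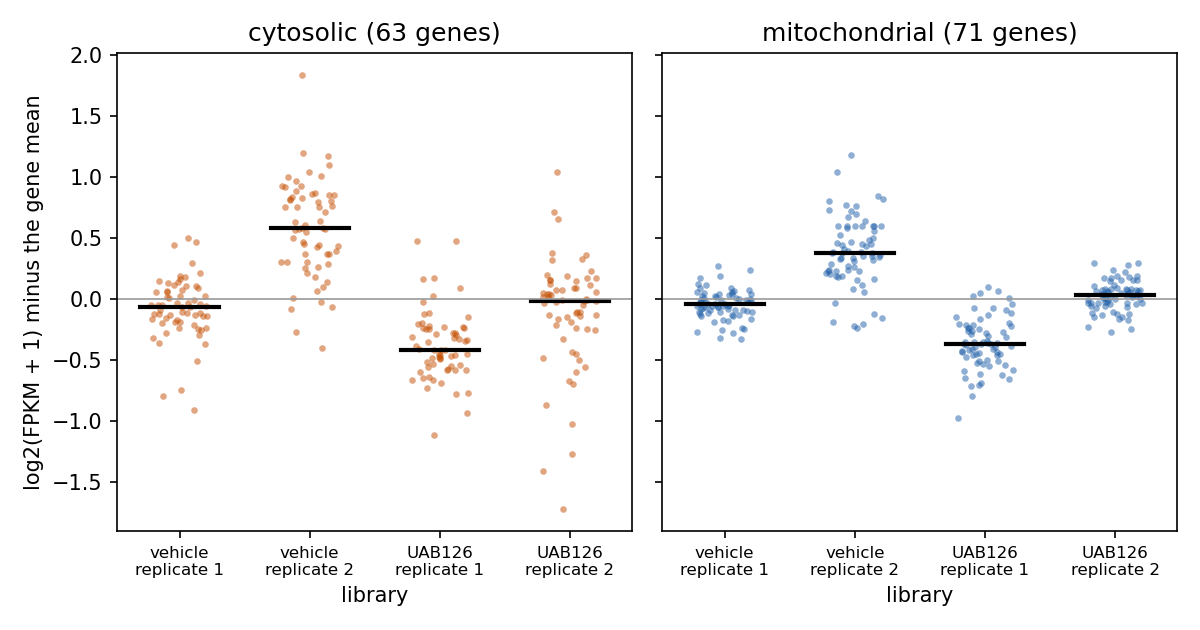
Log2(FPKM + 1) in a library minus its mean for that gene, with 1 point per tested gene and a bar at the median, for 63 cytosolic (left) and 71 mitochondrial genes (right). Vehicle replicate 2 lies high (median 0.58 and 0.37), UAB126 replicate 1 lies low (-0.41 and -0.37), and the remaining libraries lie near 0.

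Transcript length moved with the same pattern. The median annotated length was 946 bases over the tested cytosolic and 1288 bases over the tested mitochondrial genes, against 2828 bases over all tested symbols. Of 10 groups of tested genes ordered by length, the shortest (66 to 1141 bases, 1028 genes) had a median log2 difference of -0.43, and the 41 cytosolic and 30 mitochondrial genes in it had medians of -0.49 and -0.42. Its libraries deviated as those of the sets did, at -0.04, 0.49, -0.45 and 0.01. With the trend of each library with length removed, the median log2 difference was -0.07 over the cytosolic and -0.05 over the mitochondrial genes, against 0.03 over all. Both UAB126 libraries were then lower for 12 and higher for 12 cytosolic genes, and lower for 16 and higher for 19 mitochondrial genes, against 22.9% of all genes with a length lower and 27.7% higher. The cause of the trend with length was not tested.

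Members with longer annotated transcripts were also mostly negative. In the 7 groups of genes over 1984 bases, 19 of 22 mitochondrial genes had a negative difference (median -0.26) and 5 of 6 cytosolic genes (median -0.16), whereas 43.4% of all 7188 genes of these groups did (median 0.06). Mrps25, with an annotated transcript of 6073 bases, is described with the other mitochondrial genes. Some annotated lengths exceed the deposited row of the gene. Rps20 was given 3706 bases where its row spanned 1129, and Mrps16 2572 bases where its row spanned 2387. Such genes may be filed as longer than their message, so these groups are uncertain. The same lengths entered the removal of the length trend. This split by length was chosen after the values were seen.

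**Figure D4:**
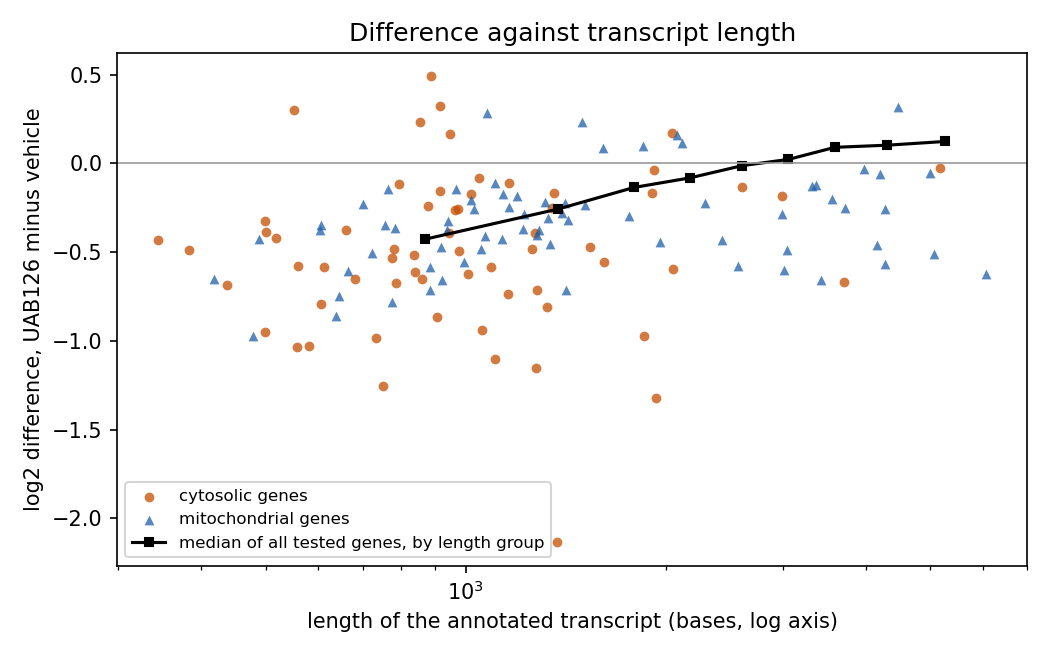
Log2 difference on the log2(FPKM + 1) scale, UAB126 minus vehicle, of each tested member against its annotated transcript length (bases, log axis), with squares at the median of all tested genes in groups of similar length. The line of all genes climbs from -0.43 in the shortest group, and most members lie near or below it.

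The medians of the sets lay close together. The cytosolic median minus the mitochondrial median was -0.14 on the log2 scale, against an SD between replicate libraries of 0.11. It was -0.01 with the length trend removed and ran from -0.26 without vehicle replicate 1 to 0.01 without vehicle replicate 2. Members are not replicates of a condition, and no test of this difference was made.

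Among the cytosolic genes with the largest differences, 3 had low levels and their lowest value in UAB126 replicate 2. Rpsa, the laminin receptor that also sits in the small subunit (chromosome 9, 120127689 to 120132369), was at 8.11 and 10.5 FPKM with vehicle and at 5.88 and 1.42 FPKM in UAB126. Rpl19, of the large subunit (chromosome 11, 98026710 to 98030492), was at 14.5 and 19.1 against 14.9 and 2.47 FPKM. Rps16, of the small subunit (chromosome 7, 28350652 to 28353155), was at 6.39 and 11.4 against 6.32 and 1.71 FPKM. For these 3 genes UAB126 replicate 2 was far below the rest; Rpl19 overlapped between groups, UAB126 replicate 1 was close to vehicle replicate 1 for Rps16, and both UAB126 libraries were lower for Rpsa. Their log2 differences were -1.32 ± 0.50, -1.25 ± 0.70 and -1.10 ± 0.52, and without UAB126 replicate 2 they were -0.57, -0.15 and -0.39.

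Differences of other cytosolic genes were spread over both UAB126 libraries. Rpl29 (chromosome 9, 106429454 to 106431568), a large subunit protein, was at 46.9 and 77.7 FPKM with vehicle and at 32.4 and 27.9 FPKM in UAB126. Rpl27a (chromosome 7, 109519147 to 109522367), also of the large subunit, was at 16.2 and 23.9 against 10.4 and 12.5 FPKM. In both, the UAB126 libraries were below the vehicle libraries, with log2 differences of -0.98 ± 0.29 (limma adjusted p = 0.298) and -0.74 ± 0.25 (limma adjusted p = 0.322). Rpl36al and Rpl32, given above, had log2 differences of -1.16 ± 0.42 and -0.86 ± 0.33 (limma adjusted p = 0.344 and 0.362). Without vehicle replicate 2 the differences of Rpl29, Rpl27a, Rpl36al and Rpl32 were -0.62, -0.47, -0.63 and -0.54. With the length trend removed they were -0.43, -0.37, -0.83 and -0.39.

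Few cytosolic genes had positive differences. Rpl7a (chromosome 2, 26910764 to 26913318), a large subunit protein that has the long pyrimidine run of 21 bases printed above, was at 23.7 and 20.3 FPKM with vehicle and at 27.9 and 27.5 FPKM in UAB126. It was the only tested cytosolic gene with both UAB126 libraries higher, its log2 difference was 0.32 ± 0.19 (limma adjusted p = 0.468), and it shared 77.4% of its stretches with 64 other genes. Rps10 of the small subunit (chromosome 17, 27630418 to 27636669) was at 6.78 and 14.6 against 7.93 and 25.9 FPKM, and Rpl10 at 11.1 and 7.20 against 14.0 and 8.17 FPKM. Rps10 and Rpl10 overlapped between groups, as did Rpl22l1 and Rpl5, and the log2 differences of these 4 ran from 0.17 to 0.49. Tested cytosolic genes with a pyrimidine run at the start had a median log2 difference of -0.25 (n = 16) and those without one of -0.58 (n = 31). This is a description with no test. Genes without a matched start window were left out, and the length trend was not removed from these values.

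The mitochondrial genes with the largest differences encode proteins of both subunits. Mrpl33 (chromosome 5, 31596935 to 31664384), a small protein of the large subunit, was at 106.6 and 231.6 FPKM with vehicle and at 56.3 and 112.4 FPKM in UAB126. Mrps18c, of the small subunit (chromosome 5, 100798627 to 100804471), was at 56.5 and 161.2 against 43.5 and 62.4 FPKM. In both genes vehicle replicate 2 was far above the others and the groups overlapped, with log2 differences of -0.97 ± 0.50 and -0.86 ± 0.52. These were -0.42 and -0.11 without vehicle replicate 2, and -1.53 and -1.61 without vehicle replicate 1. Mrpl14, at 133.1 and 243.4 against 79.7 and 143.6 FPKM, overlapped as well.

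Mrpl41 and Mrps12 did not overlap between groups. Mrpl41, of the large subunit (chromosome 2, 24974117 to 24975098), was at 10.9 and 21.2 FPKM with vehicle and 7.09 and 10.1 FPKM in UAB126. Mrps12, the homolog of the bacterial decoding-centre protein S12 (chromosome 7, 28739641 to 28741820), was at 103.87 and 172.3 against 63.5 and 103.51 FPKM. In each, vehicle replicate 1 was close to UAB126 replicate 2. The log2 differences were -0.78 ± 0.35 and -0.71 ± 0.37 (limma adjusted p = 0.401 and 0.431). They were -0.33 and -0.35 without vehicle replicate 2, and -0.25 and -0.23 with the length trend removed.

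Mrps25 (chromosome 6, 92169525 to 92184033), a small subunit protein, had the smallest p of the mitochondrial genes. It was at 13.6 and 14.6 FPKM with vehicle and at 8.49 and 9.07 FPKM in UAB126. The groups stood well apart, and replicates of a group differed little. Its log2 difference was -0.62 ± 0.17, with a limma adjusted p of 0.272, and ran from -0.67 to -0.58 when single libraries were left out. With the length trend removed it was -0.73. Mrpl45 (18.5 and 21.2 against 13.7 and 15.2 FPKM) and Mrpl32 (46.4 and 70.3 against 35.4 and 39.3 FPKM), both of the large subunit, followed by p, with limma adjusted p = 0.390 and 0.395.

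Positive differences were few here too. Mrps5 (chromosome 2, 127587222 to 127606829), a small subunit protein, was at 21.0 and 19.7 FPKM with vehicle and at 23.2 and 28.1 FPKM in UAB126. Mrps18b (chromosome 17, 35910379 to 35916389), a relative of Mrps18c, was at 32.03 and 27.9 against 35.4 and 37.7 FPKM. Mrpl37 was at 33.7 and 28.8 against 35.5 and 38.2 FPKM. In these genes and in Mrpl50 (28.01 and 25.5 against 28.8 and 29.2 FPKM) both UAB126 libraries were higher, with log2 differences of 0.11 to 0.32 and limma adjusted p of 0.487 to 0.785. Mrps18b and Mrps18c had differences of opposite sign, and neither passed.

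Genes that build, load and control the ribosome were listed separately. Of 135 tested genes on 9 such lists, 0 passed (limma) and 12 had an unadjusted p under 0.05 (8.89%), below the 13.4% of all tested symbols. Among cytosolic ribosome genes with other names, Gnb2l1, the scaffold RACK1 on the small subunit, was at 390.9 and 377.0 FPKM with vehicle and 442.1 and 517.4 FPKM in UAB126. Fau, a fusion with a small subunit protein, was at 3.89 and 4.997 against 2.04 and 4.85 FPKM. Of the 3 tested genes on this list none passed. Both UAB126 libraries were lower for 1 and higher for 1, beside 26.9% and 22.7% of all tested symbols. The median log2 difference was -0.36, or 0.19 with the length trend removed. Of 8 mitochondrial ribosome genes with other names, none passed, and both UAB126 libraries were lower for 3 and higher for 1, beside 26.9% and 22.7% of all tested symbols. Their median log2 difference was -0.45, but -0.15 with the length trend removed. Dap3, a GTP-binding small subunit protein, was at 70.5 and 109.8 against 45.3 and 59.9 FPKM.

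The list of cytosolic ribosome biogenesis had a positive median and that of mitochondrial ribosome assembly a negative one. Of 30 biogenesis genes, none passed, both UAB126 libraries were higher for 12 and lower for 2 (22.7% and 26.9% of all tested symbols), and the median log2 difference was 0.15, or 0.20 with the length trend removed. Nop56, a core protein of the small nucleolar particles that methylate ribosomal RNA, was at 3.62 and 3.46 FPKM with vehicle and at 5.88 and 7.36 FPKM in UAB126 (log2 difference 0.74 ± 0.19, limma adjusted p = 0.269). Of 17 genes of TOR signalling and TOP control, none passed, 6 were higher and 2 lower in both UAB126 libraries, beside the same 22.7% and 26.9%, and the median was 0.15, or 0.07 with the length trend removed. Of 17 mitochondrial ribosome assembly genes, none passed, and 4 were higher and 4 lower. Their median was -0.30, but -0.01 with the length trend removed.

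Translation factors were listed in the same way. Of 14 elongation factor and other TOP genes, none passed, and both UAB126 libraries were lower for 7 and higher for 2, beside 26.9% and 22.7% of all tested symbols. Their median was -0.17, but 0.01 with the length trend removed. The elongation factor Eef1a1, which brings aminoacyl-tRNA to the ribosome, was at 1171 and 1159 FPKM with vehicle and at 1118 and 1082 FPKM in UAB126. Eef2, which moves the ribosome along the message, was at 487.8 and 438.2 against 597.5 and 543.7 FPKM, higher in both. Pabpc1, the poly(A)-binding protein, was at 277.2 and 480.3 against 179.1 and 141.2 FPKM, lower in both. Of 11 mitochondrial translation factors none passed, with 5 lower, 3 higher and a median of -0.09, or -0.01 with the length trend removed. The tRNA synthetase genes had medians of 0.04 (19 cytosolic) and -0.01 (16 mitochondrial), or 0.12 and 0.04 with the length trend removed, and none passed. Dap3, Nop56 and Pabpc1 were named after their values were seen.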

How the data were processed

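Polyadenylated RNA of 4 liver libraries was sequenced, per the labels' protocols. The authors deposited 1 table of FPKM values; the submitters' processing notes name Trim Galore 0.4.1, STAR 2.5.1b, Cufflinks 2.2.1, Cuffdiff and mm10. Annotation, strand setting and treatment of multiply mapping reads are not stated in the sources at hand. FPKM of rows sharing a symbol were summed, and 3634 of 27216 rows without a symbol were left out.

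Symbols averaging 1 FPKM or more were fitted on log2(FPKM + 1) in R 4.3.3 by limma 3.58.1 (lmFit, eBayes with trend, only group as a term, two-sided, Benjamini-Hochberg adjusted over 10786 symbols). The fit was also run on simulated data with known changes, larger than those of nearly all members. That run had independent noise per gene, so it does not measure power for the differences seen here. An exact permutation of 2 against 2 libraries cannot go below p = 0.333. Positions and transcripts came from GENCODE M21, with the APPRIS principal transcript for length and shared stretches. The length trend was a loess (span 0.3) per library.

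The members and lists were chosen with earlier results of these data known. Named were, per set, members past the threshold, the 5 highest and 5 lowest differences, the 3 smallest p, the 3 highest means, members listed at 0 in 1 to 3 libraries, paralogs with parents, stalk genes and Rpsa. Alternatives changed the pseudocount, scaling, filter, row summing, length trend, spread, members, replicate block and libraries used. Single values of 2 listed genes are not reported here.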

Additional observations from a re-analysis of the deposited data

How the results depend on the processing

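The count of 0 members past the threshold in either set held in every alternative but the one without vehicle replicate 1. Removing the length trend moved the median log2 difference to -0.065 (cytosolic) and -0.053 (mitochondrial), and the cytosolic minus mitochondrial median to -0.013. Members lower in both UAB126 libraries then numbered 12 and 16, beside 22.9% of all genes with a length. Quantile normalization gave medians of -0.246 and -0.181 and a difference of medians of -0.065. With no filter this difference was -0.054. When single libraries were left out, cytosolic members past the threshold numbered 0 to 3 and mitochondrial ones 0. The cytosolic median ran from -0.785 to -0.130, the mitochondrial from -0.534 to -0.140 and their difference from -0.257 to 0.010. Members lower in both UAB126 libraries numbered 25 to 56 and 25 to 63; with 1 library in a group this is a weaker condition, and the lone library is assumed by limma to vary like the others.

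Of 42 named members tested, some changed sign. With quantile normalization the log2 difference was 0.153 for Mrpl12, 0.156 for Rpl7, 0.193 for Rplp0, 0.341 for Rplp1 and 0.078 for Rplp2. With the length trend removed it was 0.089 for Mrpl12, 0.141 for Mrps21, 0.042 for Rpl3, 0.011 for Rpl39, 0.255 for Rpl7, 0.128 for Rplp0, 0.250 for Rplp1, 0.188 for Rplp2, 0.184 for Rps4x and 0.066 for Rps4y2. Without single libraries it ran from -0.121 to 0.588 for Rpl10, -0.455 to 1.058 for Rpl22l1, -0.606 to 0.098 for Rpl3, -0.117 to 0.460 for Rpl5, -0.357 to 0.138 for Rpl7, -0.320 to 0.048 for Rpl7l1, -0.716 to 0.194 for Rplp2, -0.306 to 1.285 for Rps10 and -1.538 to 0.164 for Rps28. The cause was not tested. A mean of at least 5 FPKM left no value for Rpl3l, Rpl5 and Rps27.

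With the replicate number as a block (replicate block), 0 cytosolic and 0 mitochondrial members passed and the medians stayed at -0.487 and -0.349. Deviations of same-numbered libraries correlated at 0.178 over tested symbols, but with 2 pairs the numbers are not shown to pair the samples. Leaving out Rps19bp1 or members with over 50% shared sequence, both chosen after seeing the data, gave cytosolic medians of -0.486 and -0.524. Depth limits the low members most, and vehicle replicate 2 is the shallowest library.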
